A study of Mus musculus with 16 samples.

Results

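Clk1, Clk2, Clk3, Clk4, Mat2a and Ogt are genes whose polyadenylated RNA can stay in the nucleus because some of its introns are not removed. They were chosen by name, as the CLK kinase family and a pair of metabolic genes known for such introns, and the rule that lists them uses no measured value, although earlier results of these data were known when it was written. All 6 members were found among the 53379 genes counted, and all 6 were among the 22936 genes tested. The RNA bound to Sox2 was measured in male mouse embryonic stem cells (mESC), for which the labels name no genetic modification. The cells grew on gelatin in serum medium with LIF and the inhibitors PD0325901 and CHIR99021, which block MEK and GSK3, and all groups share these conditions. In UV-RIP the cells were crosslinked with UV light, which joins protein to RNA in direct contact, and in fRIP with formaldehyde, which in addition links proteins among themselves. Sox2 was immunoprecipitated (IP) from 4 plates for each crosslinker, and each plate also gave an input library of total RNA depleted of ribosomal RNA, which makes 16 libraries. Pulldown with a control antibody was not analysed here, so every value below sets the IP against the input.

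A detained intron is one that stays in a finished, polyadenylated transcript while the rest is spliced. The transcript waits in the nucleus and is either spliced later or degraded, so that the cell holds a store of RNA that does not yet make protein. The CLK genes encode dual-specificity kinases that phosphorylate SR proteins, the serine- and arginine-rich splicing factors, and CLK activity in turn changes how the CLK transcripts themselves are spliced. Mat2a encodes the catalytic subunit of the methionine adenosyltransferase that makes S-adenosylmethionine (SAM), the methyl donor of the cell, and its intron is removed when SAM is low. Ogt encodes the enzyme that adds O-linked N-acetylglucosamine (O-GlcNAc) to nuclear and cytoplasmic proteins, and its intron is removed when O-GlcNAc is low.

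On GRCm38 with GENCODE vM21, all 6 genes carry transcripts annotated as retained intron. Clk1 (ENSMUSG00000026034.17, chr1:58410189-58424066, minus strand) has 7 of them among 13 transcripts, and Clk4 (ENSMUSG00000020385.16, chr11:51261730-51281766, plus strand) has 7 among 14. Clk2 (ENSMUSG00000068917.12, chr3:89164795-89176921, plus strand) has 4 among 11, and Clk3 (ENSMUSG00000032316.8, chr9:57750624-57765860, minus strand) has 4 among 9. Mat2a (ENSMUSG00000053907.10, chr6:72432799-72439558, minus strand) has 3 among 10, and Ogt (ENSMUSG00000034160.13, chrX:101640060-101684351, plus strand) has 3 among 7. Among the 16162 protein-coding genes tested, 18.2% have 3 or more such transcripts and 1.93% have 7 or more.

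In all 4 CLK genes the annotated retained introns include introns 3 and 4 of the coding transcript, which flank exon 4. Ends of intron 4 are shown because the whole family shares this intron and because its donor site shows the likeness of Clk1 and Clk4. Each window holds 30 bases on the RNA strand, written as DNA and read from annotated transcripts that keep the intron. The capitals mark the GT that opens the intron or the AG that closes it. Intron 4 lies at chr11:51273169-51273559 in Clk4, at chr3:89169703-89170048 in Clk2 and at chr9:57758351-57758626 in Clk3, all on GRCm38.
Clk1 donor: agtgcaagatGTatagaatatttttcaaca
Clk4 donor: agagcaagatGTatagaatatttttcaaca
Clk2 donor: caagagcgatGTacaagccaaatcgtaaca
Clk3 donor: caagagcgatGTacagccacctttcgtaaa
Clk4 acceptor: ctttctctcccttactttAGatgaaatcgt
Clk2 acceptor: cctactttctttcgtttcAGatgaaattgt
Clk3 acceptor: cagcttcttctttctcacAGatgagatcgt
The donor windows of Clk1 and Clk4 were identical at 29 of 30 bases. Those of Clk2 and Clk3 were identical at 19 of 30, and across the pairs the count was 14 or 15. The acceptor windows of Clk2, Clk3 and Clk4 had 17 to 20 identical bases in each pair. At intron 3 the donor windows of Clk1 and Clk4 were identical at 17 of 30 bases, and those of Clk2 and Clk3 at 16.

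Mat2a has intron 2 of its 8 introns annotated as retained, at chr6:72437118-72437370, and its ends are shown for comparison with the CLK sites. The annotation holds no regulation, so this intron is not shown to be the one that responds to SAM. For Ogt, no annotated transcript keeps a whole intron of the coding transcript, so no site is printed.
Mat2a donor: gtggcttgtgGTaggtacagagcacttgtt
Mat2a acceptor: ataaaactttgttttattAGaaactgttgc
The deposited counts are of unique molecular identifiers (UMIs) over the whole gene body, introns and exons together. Copies of the same fragment made by amplification carry the same UMI and count once. Spliced and intron-holding RNA of a gene are therefore summed in every value below.

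The libraries held between 12456298 and 21211537 UMIs, and each member had between 376 and 5372 UMIs in every library. Of 10 embryonic stem cell markers 9 had UMIs, with a summed level between 2385 and 4953 counts per 1000000 UMIs of the library (CPM), against 1.83 to 3.60 for 6 fibroblast markers and 6.89 to 10.4 for 7 markers of differentiated lineages. Sox2 itself, which lies within Sox2ot on the same strand, is listed at 0 in all 16 libraries and so gives no check of the cells. The locus Gm26917 took 18.4% to 22.3% of the UMIs in the UV-RIP IP and 12.03% to 12.29% in its input. The fRIP IP library of replicate 5 stood apart from the other fRIP IP libraries, with 12.4% on Gm26917 against 5.44% to 6.81%. The fRIP input library of replicate 4 also stood apart, since chi-square of its gene counts, divided by the degrees of freedom, was 41.0 to 51.9 against the other fRIP inputs and 3.17 to 13.5 among those. It held the lowest Clk2 and the highest Mat2a level of the fRIP inputs.

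After UV crosslinking, the RNA of 5 of the 6 genes was lower in the Sox2 IP than in the input, none was higher, and Clk3 did not pass the test. Clk1 was furthest from the input, at 1.70-fold lower, followed by Ogt at 1.48-fold and Clk4 at 1.39-fold. Lower means an adjusted p below 0.05 in edgeR's quasi-likelihood test, where the plate was the block and Benjamini-Hochberg adjustment ran over the 22936 genes. By this rule 29.0% of all genes tested were lower in the IP and 6.60% were higher. Such shares, here and below, are over genes of any depth, down to 3 UMIs in 1 library. Each member had at least 376 UMIs in every library, and shares among genes of like depth were not computed. With a fold of more than 1.5 also asked for, Clk1 alone among the members was depleted and none was enriched, against 5.53% and 0.680% of all genes. The median log2 fold change was -0.40 over the members and -0.17 over all genes. The p-values set each change against the spread between 4 plates of cells, which edgeR estimates with information from all genes tested. They do not measure the spread of a single gene alone.

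Clk1, the member of the family whose own splicing is best known to respond to CLK activity, had 79.1, 73.6, 82.1 and 82.3 CPM in the UV-RIP IP libraries of replicates 3, 4, 5 and 6. The inputs of the same plates had 133, 135, 131 and 139 CPM. The highest IP library was well below the lowest input library, and the IP was lower in 4 of 4 plates. The mean was 79.3 ± 4.05 CPM for the IP against 135 ± 3.59 for the input (SD, n = 4 each), a log2 fold change of -0.76 (standard error 0.04, edgeR adjusted p = 2.19e-66). Removal of the GC trend brought it to -0.28, still past the threshold.

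Clk4, the closest relative of Clk1, had 40.6, 37.4, 39.0 and 43.6 CPM in the IP and 54.8, 56.5, 54.2 and 58.1 in the input, in the same order of replicates. The groups did not overlap. The means of 40.1 ± 2.64 and 55.9 ± 1.76 CPM (SD, n = 4 each) gave a log2 fold change of -0.48 (standard error 0.05, edgeR adjusted p = 2.36e-19). With the GC trend removed it was -0.08 and did not pass (edgeR adjusted p = 0.322). Shared sequence of Clk1 and Clk4 was counted over their annotated transcripts, and introns that no transcript keeps were not compared. Of the distinct 34-base words in their annotated transcripts 24 were shared, which is 0.288% of those of Clk1 and 0.395% of those of Clk4, and no other pair of members shared any.

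Clk2, a kinase of nuclear speckles, had 56.1, 53.5, 49.4 and 49.5 CPM in the IP and 63.6, 65.3, 60.5 and 67.2 in the input. The groups were close but did not overlap. Its log2 fold change was -0.30 (standard error 0.05, edgeR adjusted p = 4.27e-09), from means of 52.1 ± 3.28 and 64.1 ± 2.85 CPM (SD, n = 4 each). It did not pass with median-of-ratios factors in DESeq2, at -0.13, or with the length trend removed, at -0.11.

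Clk3, the remaining member of the family, had 31.4, 32.6, 30.2 and 28.8 CPM in the IP and 30.9, 32.7, 28.5 and 33.9 in the input. The groups overlapped, and the IP was higher in some plates and lower in others. The log2 fold change of -0.04 had a standard error of 0.06 and did not pass (edgeR adjusted p = 0.696). With edgeR's TMM factors in place of total UMIs as the library size, the same contrast was 0.14 with an adjusted p of 0.0479, so the sign for Clk3 depends on the scaling.

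Mat2a had 165, 168, 160 and 165 CPM in the UV-RIP IP and 209, 212, 203 and 202 in the input. The 4 plates were nearly alike, with log2 ratios of IP to input between -0.34 and -0.29. The fitted log2 fold change was -0.33 (standard error 0.04, edgeR adjusted p = 5.53e-15), with means of 165 ± 3.39 and 207 ± 4.91 CPM (SD, n = 4 each). It was -0.08 and no longer past the threshold (edgeR adjusted p = 0.144) once a trend on GC content over all genes was removed.

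Ogt, the member with the most UMIs in UV-RIP, had 210, 212, 220 and 213 CPM in the IP and 307, 295, 337 and 325 in the input. The groups lay far apart relative to their spread. The log2 fold change was -0.56 (standard error 0.04, edgeR adjusted p = 6.89e-45), with means of 214 ± 4.63 and 316 ± 18.4 CPM (SD, n = 4 each). Removal of the GC trend brought it to -0.24, still past the threshold.

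**Figure D1:**
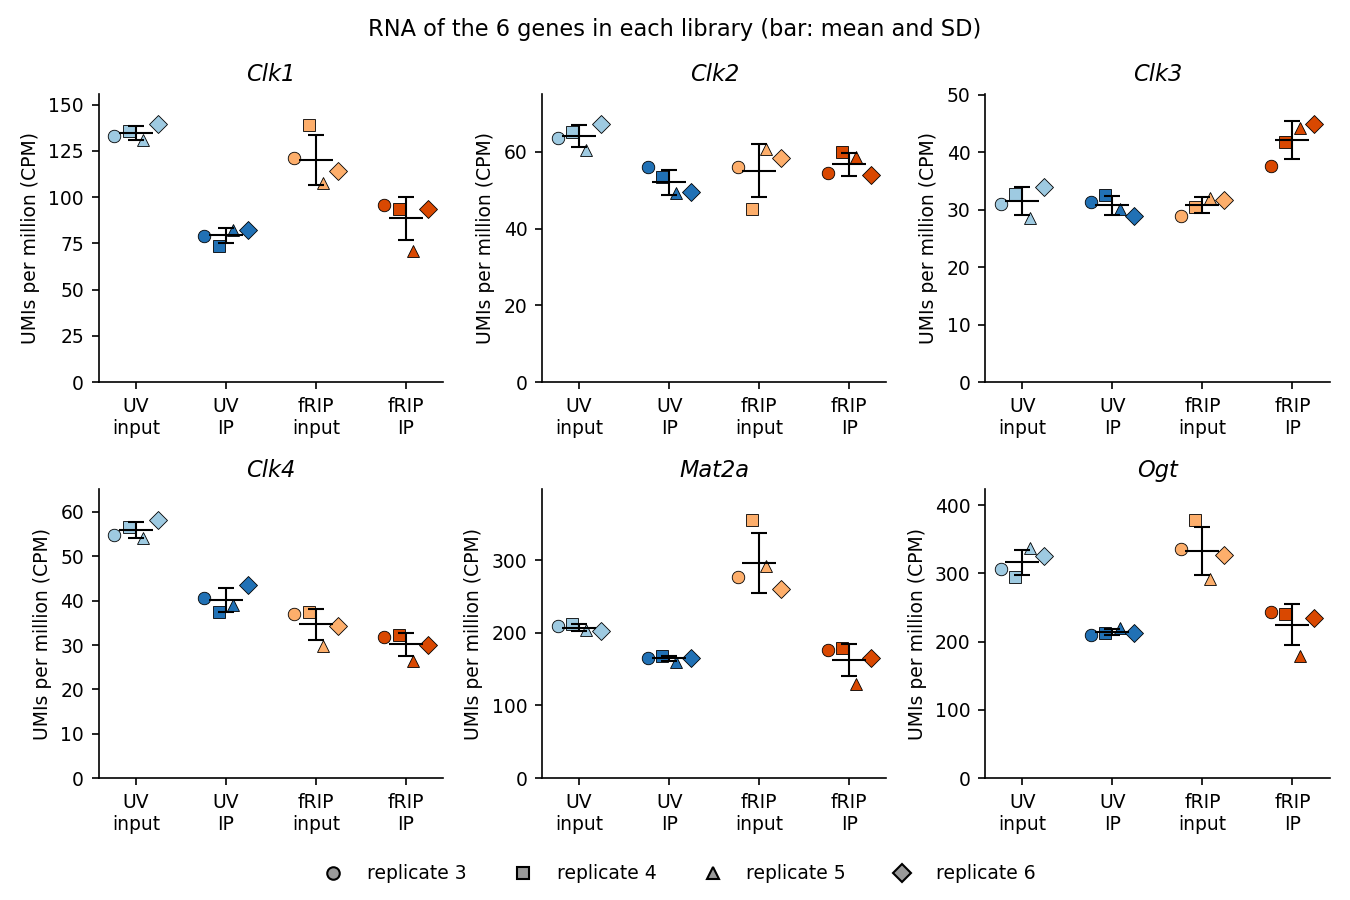
Level in CPM of each gene in each of the 16 libraries, grouped by crosslinker and by IP or input; symbols mark the replicate number, and the bars give the mean and SD of 4 libraries. In UV-RIP the IP libraries lie below the input libraries for 5 genes and among them for Clk3, and in fRIP the Clk3 libraries of the IP lie above their inputs.

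The scaling sets how many genes lie on each side of the input in UV-RIP. With total UMIs as the library size 6640 genes were lower and 1514 higher, and with TMM factors 3400 were lower and 3724 higher, which moved the median of all genes from -0.17 to 0.01. With median-of-ratios factors 4 members were lower, and with the length or the GC trend removed 3 were. Under TMM the same 5 members remained lower than the input, with log2 fold changes of -0.58 for Clk1, -0.38 for Ogt, -0.30 for Clk4, -0.15 for Mat2a and -0.12 for Clk2. Clk1 then no longer reached the fold of 1.5.

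After formaldehyde crosslinking the members divided. Mat2a, Ogt and Clk1 were lower in the IP than in the input, Clk3 was higher, and Clk2 and Clk4 did not pass. Mat2a was furthest from the input at 1.82-fold lower, and Clk3 was 1.37-fold higher. Of all genes tested, whatever their depth, 21.9% were lower and 17.6% higher in the fRIP IP, beside 3 of 6 and 1 of 6 members. With the fold of 1.5 also required, Mat2a was depleted and no member was enriched, where 10.7% of all genes were depleted and 8.80% enriched. The median log2 fold change was -0.32 over the members and -0.03 over all genes.

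Mat2a had 176, 178, 130 and 165 CPM in the fRIP IP, against 277, 355, 292 and 260 in the input. Every IP library was below every input library. The plates were less alike than in UV-RIP, with log2 ratios of -0.66, -0.99, -1.17 and -0.65. The means were 162 ± 22.4 and 296 ± 41.3 CPM (SD, n = 4 each), and the log2 fold change was -0.87 (standard error 0.09, edgeR adjusted p = 1.93e-08). Without replicate 5, whose IP was the lowest, it was -0.77 and past the threshold. With the length trend removed it was -0.44 (edgeR adjusted p = 0.000205), still lower but no longer past the fold of 1.5.

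Ogt had 243, 240, 180 and 235 CPM in the fRIP IP, against 336, 378, 292 and 327 in its input, with no overlap. Its log2 fold change of -0.57 (standard error 0.07, edgeR adjusted p = 1.02e-06) rests on means of 225 ± 30.2 and 333 ± 35.2 CPM (SD, n = 4 each). The IP library of replicate 5 was the lowest, and without that replicate the log2 fold change was -0.53.

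Clk1 had 95.6, 93.6, 71.0 and 93.8 CPM in the fRIP IP, against 121, 139, 107 and 114 in the input. The groups did not overlap, and the IP was lower in 4 of 4 plates. The log2 fold change was -0.45 (standard error 0.08, edgeR adjusted p = 6.92e-05), from means of 88.5 ± 11.7 and 120 ± 13.5 CPM (SD, n = 4 each), and it was -0.40 without replicate 5. With the GC trend removed it was -0.01 (edgeR adjusted p = 0.962).

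Clk3 had 37.5, 41.8, 44.3 and 44.8 CPM in the fRIP IP, against 28.9, 30.5, 32.0 and 31.7 in the input. All 4 plates moved alike, with log2 ratios of 0.37, 0.46, 0.47 and 0.50. The log2 fold change was 0.45 (standard error 0.08, edgeR adjusted p = 8.90e-05), with means of 42.1 ± 3.33 and 30.8 ± 1.39 CPM (SD, n = 4 each). Over 12.3% of its length Clk3 overlaps Edc3 on the opposite strand, and the strand setting of the counting is not given in the sources used here. Edc3 had 78.4 ± 4.93 CPM in the fRIP IP against 72.6 ± 1.93 for the input (SD, n = 4 each), and whether its reads enter the value for Clk3 was not tested. Other members are overlapped as well. On the opposite strand, Particl covers 7.5% of Mat2a and BC049762 6.6% of Clk4, and Gm25082 covers 1.3% of Clk4 on the same strand. Particl had at most 42 UMIs in a library, BC049762 at most 7 and Gm25082 had 0.

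Clk2 had 54.6, 59.9, 58.6 and 53.9 CPM in the fRIP IP, against 56.0, 45.1, 60.7 and 58.6 in the input. The groups overlapped, and only the plate of replicate 4, whose input was the lowest, had the IP above the input. The log2 fold change was 0.05 (standard error 0.09, edgeR adjusted p = 0.730).

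Clk4 had 31.7, 32.3, 26.4 and 30.1 CPM in the fRIP IP, against 37.1, 37.4, 29.9 and 34.2 in the input. Within each plate the IP was lower, with log2 ratios between -0.23 and -0.18, but the groups overlapped. The log2 fold change of -0.20 (standard error 0.08) did not pass (edgeR adjusted p = 0.0601). It passed without replicate 4 (edgeR adjusted p = 0.0191) and in a fit over all 16 libraries (edgeR adjusted p = 0.0143).

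**Figure D2:**
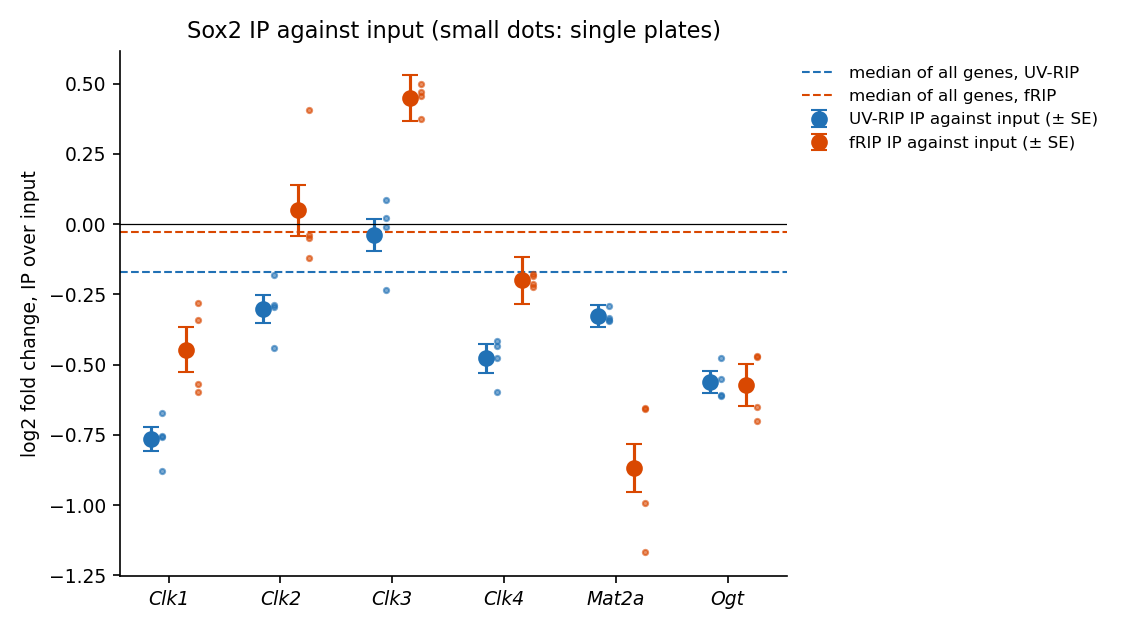
Log2 fold change of IP over input for each gene in UV-RIP and fRIP, with the standard error of the edgeR fit; small dots are the ratios of single plates and dashed lines the medians of all genes tested. Mat2a is lower in fRIP than in UV-RIP, Clk3 is above 0 in fRIP and near 0 in UV-RIP, where TMM factors turn its sign, and Ogt is at -0.56 and -0.57.

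Whether the crosslinker changed the ratio of IP to input was asked in a joint edgeR fit of the 16 libraries that holds an interaction of pulldown and crosslinker and takes the plate as the block. The ratio was higher in fRIP than in UV-RIP for all 4 CLK genes, by 0.49 for Clk3 (standard error 0.10, edgeR adjusted p = 0.000488), 0.35 for Clk2 (0.11, edgeR adjusted p = 0.0134), 0.32 for Clk1 (0.09, edgeR adjusted p = 0.00809) and 0.28 for Clk4 (0.09, edgeR adjusted p = 0.0244) on the log2 scale. It was lower in fRIP for Mat2a, at -0.54 (standard error 0.10, edgeR adjusted p = 0.000114). The ratio for Ogt differed by -0.01 with a standard error of 0.08 (edgeR adjusted p = 0.950). Of all genes tested, 18.6% had a higher ratio in fRIP and 8.07% a lower one, with a median difference of 0.15.

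The differences for Clk3 and Mat2a were past the threshold under every alternative run. Those for Clk1, Clk2 and Clk4 were not. With TMM factors they were 0.20, 0.23 and 0.16, with edgeR adjusted p of 0.0893, 0.0959 and 0.209, and the median of all genes was 0.03. The genes with a higher and a lower ratio in fRIP then numbered 3062 and 2810, against 4264 and 1852 with total UMIs. Without the plate as a block, the differences of 0.32 for Clk1 and 0.27 for Clk4 did not pass (edgeR adjusted p = 0.0689 and 0.110).

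The inputs show the share of each RNA among the UMIs of the lysate libraries, not its amount. Between the crosslinkers, 4 of the 6 genes did not differ by the test, Clk4 was lower in the fRIP input and Mat2a was higher. Clk4 had 34.6 ± 3.48 CPM in the fRIP input and 55.9 ± 1.76 in the UV-RIP input (SD, n = 4 each), with no overlap, a log2 difference of -0.69 (standard error 0.08, edgeR adjusted p = 9.20e-06). Mat2a had 296 ± 41.3 and 207 ± 4.91 CPM (SD, n = 4 each), also with no overlap, a log2 difference of 0.52 (standard error 0.08, edgeR adjusted p = 0.000139). With the length trend removed the difference for Mat2a was 0.17 and did not pass (edgeR adjusted p = 0.128). The log2 differences for the others were -0.22 for Clk2 (edgeR adjusted p = 0.0682), -0.16 for Clk1 (edgeR adjusted p = 0.121), -0.03 for Clk3 (edgeR adjusted p = 0.787) and 0.08 for Ogt (edgeR adjusted p = 0.484). Of all genes 17% were lower and 20.2% higher in the fRIP input. By the fold of 1.5 as well, Clk4 was among the 9.44% that were lower by that much and no member was among the 10.6% that were higher. The plates of the crosslinkers were separate, 4 for each. The error of this test is the spread between plates, here too estimated with information from all genes. In bulk libraries, fewer cells of a type and less RNA per cell cannot be told apart. Nor can the level of an RNA and its recovery after each crosslinker.

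Other listed RNAs moved between the inputs too. All 10 abundant cytoplasmic mRNAs listed were higher in the fRIP input, by between 0.33 and 1.76 on the log2 scale, the latter for Actb, which encodes cytoplasmic actin. Under each of the other 5 scalings 9 of them were higher. Of the 6 nuclear noncoding RNAs listed 3 were lower, 1 was higher and 2 did not pass. Neat1, the scaffold RNA of nuclear paraspeckles, was lower at -1.30, and Kcnq1ot1, a nuclear antisense transcript, at -0.63, while Meg3 was higher at 0.53. Of the embryonic stem cell markers, 7 of the 9 tested were higher in the fRIP input and none was lower, with a median of 0.97, among them Nanog at 1.26 and Pou5f1 at 1.21. With the length trend removed 6 were higher and 2 lower, with a median of 0.37. The part of these RNAs in the values for Clk4 and Mat2a was not tested. Without replicate 4 the input differences were -0.72 for Clk4 and 0.43 for Mat2a, both past the threshold.

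Levels can be compared between genes only per length, and the gene body was used since the reads were counted on it. In the UV-RIP input, Mat2a had 30.6 ± 0.73 CPM per kb, Clk1 9.71 ± 0.26, Ogt 7.13 ± 0.41, Clk2 5.29 ± 0.23, Clk4 2.79 ± 0.09 and Clk3 2.07 ± 0.16 (SD, n = 4 each). Each neighbouring pair in this order was separated, with a 2-sided exact permutation p of 0.0286, the smallest that 4 against 4 libraries can give, and 0.0317 after adjustment over 10 pairs. The order came from these same libraries, so this p only marks pairs whose values did not overlap. In the fRIP input the order was Mat2a at 43.8 ± 6.11 CPM per kb, Clk1 at 8.67 ± 0.98, Ogt at 7.52 ± 0.80, Clk2 at 4.54 ± 0.57, Clk3 at 2.02 ± 0.09 and Clk4 at 1.73 ± 0.17 (SD, n = 4 each). There the levels of Clk1 and Ogt overlapped between libraries (exact permutation p = 0.114), a test that does not use that both genes were measured in the same libraries. Within a library Clk1 was higher than Ogt in 4 of 4, by 1.11-fold to 1.17-fold. Clk4 lay below Clk3. Divided by the length of the annotated exons instead, Ogt stood above Clk1 in both inputs, since exons make up 18.2% of the gene body of Ogt and 58.6% of that of Clk1. Exon length also turned the order of Clk4 and Clk3 in the fRIP input, to 5.97 ± 0.60 and 3.64 ± 0.16 CPM per kb (SD, n = 4 each).

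**Figure D3:**
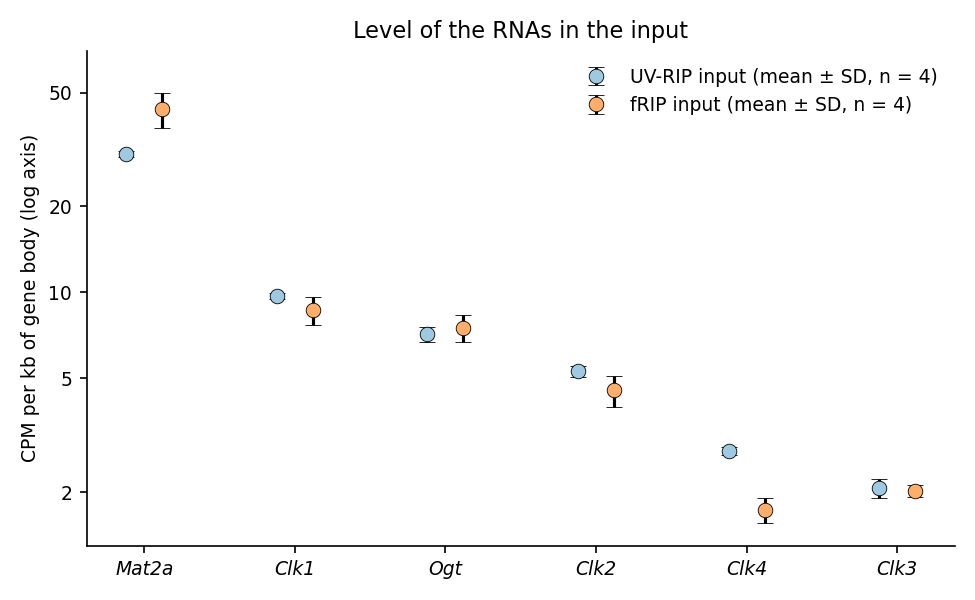
Input level per kb of gene body on a log axis, as mean and SD of 4 libraries for each crosslinker, in the order of the UV-RIP input. Mat2a is highest in both inputs, and Clk4 lies above Clk3 in the UV-RIP input and below it in the fRIP input, where exon length would turn that order.

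The members differ in base composition, and the fold changes of all genes moved with it. The GC content of the annotated transcripts was 39.4% for Clk1, 41.7% for Clk4, 43.7% for Ogt, 46.2% for Mat2a, 53.7% for Clk3 and 53.9% for Clk2, against a median of 50.4% over protein-coding genes tested. Clk1 and Clk4 thus share a low GC content as well as the likeness of their donor sites, and Clk2 and Clk3 a higher one. Among the genes that averaged at least 100 UMIs per library and had a GC content from 38% to 40%, the median log2 fold change in UV-RIP was -0.47, with quartiles of -0.60 and -0.34, and Clk1 at -0.76 lay below them. In fRIP the same genes had a median of -0.37 and quartiles of -0.64 and -0.15, which hold Clk1 at -0.45. Among genes with 46% to 48% the fRIP median was -0.09 with quartiles of -0.41 and 0.23, and Mat2a at -0.87 lay below them. Among those with 52% to 54% the fRIP quartiles were -0.30 and 0.44, so Clk3 at 0.45 lay at their upper edge.

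The fRIP fold changes of all genes moved further with gene length than with GC content, from a median of -1.21 in the shortest gene bodies to 0.52 in those of 5.5 to 5.75 on the log10 scale of base pairs. Among genes of 3.75 to 4 on that scale, which hold Mat2a, the fRIP median was -0.39 with quartiles of -0.68 and -0.09, and Mat2a at -0.87 lay below them. Among genes of 4 to 4.25, which hold Clk3, the quartiles were -0.53 and 0.04, and Clk3 at 0.45 lay above them.

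With the GC trend removed from each fit, Clk1, Ogt and Clk2 stayed lower in the UV-RIP IP, at -0.28, -0.24 and -0.25, while Clk4 and Mat2a were both at -0.08 and did not pass (edgeR adjusted p = 0.322 and 0.144). In fRIP, Mat2a stayed lower at -0.73 and Ogt at -0.32, Clk3 stayed higher at 0.38, and Clk1 did not pass.

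**Figure D4:**
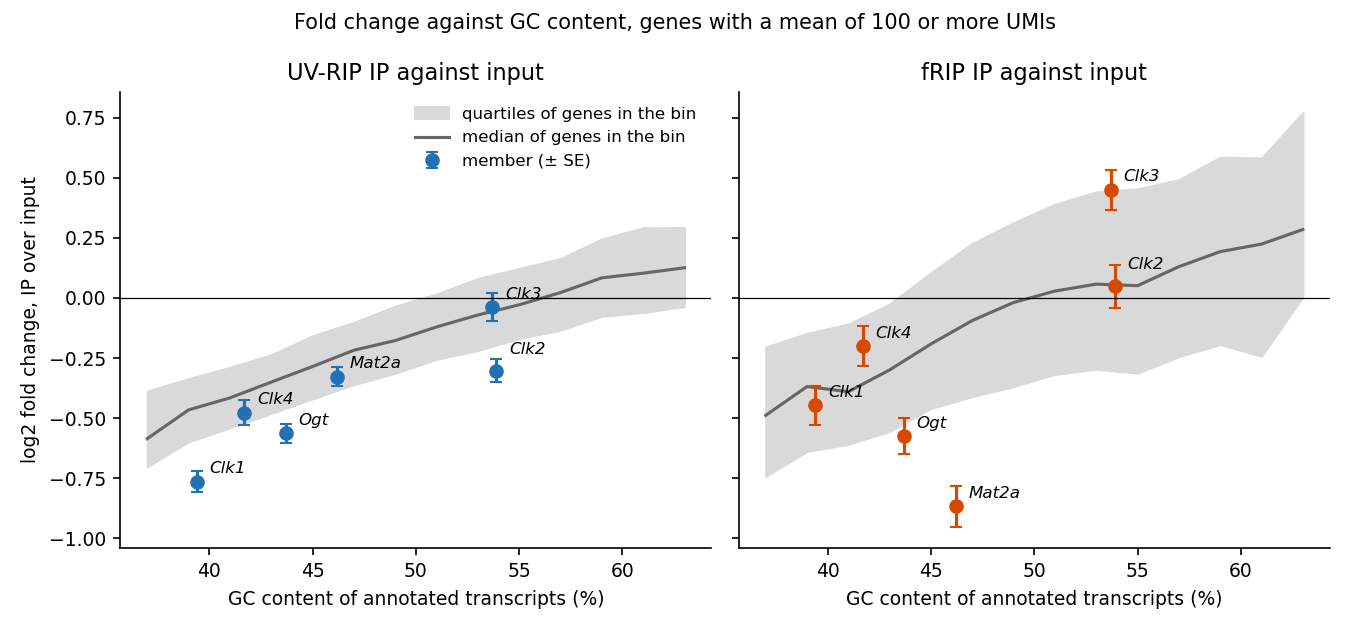
Log2 fold change of IP over input against the GC content of annotated transcripts, for UV-RIP and fRIP; the line and band are the median and quartiles of genes averaging at least 100 UMIs in bins of GC content, and the points are the 6 genes with their standard errors. Clk1 lies below the band in UV-RIP and inside it in fRIP, and Mat2a lies inside it in UV-RIP and below it in fRIP.

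The SR proteins are the substrates of the CLK kinases, and many of their genes carry detained or poison-exon transcripts of their own. Of 13 genes for SR and related proteins, 11 were lower in the UV-RIP IP, none was higher and 2 did not pass, with a median log2 fold change of -0.59. With TMM factors 11 were lower and 1 higher, with a median of -0.41, and with the GC trend removed 10 were lower and none higher, with a median of -0.25. Srsf3 was at -0.77 (standard error 0.04) and Srsf1 at -0.76 (standard error 0.04), close to the -0.76 of Clk1. In fRIP 11 were lower, 1 was higher and 1 did not pass, with a median that was also -0.59, but with the length trend removed 7 were lower and 1 higher, with a median of -0.23. Srsf1 was at -1.17 and Srsf7 at -0.90, and Srsf4 was higher at 0.39. The medians of the 6 members were -0.40 and -0.32.

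Other kinases of splicing factors and of the same wider kinase group were nearer to all genes. Of 13, 6 were lower and 1 was higher in the UV-RIP IP, with a median log2 fold change of -0.17, but with TMM factors 2 were lower and 1 higher, with a median of 0.01. Prpf4b, a kinase of the assembling spliceosome, was lower at -0.62, Srpk1, which phosphorylates SR proteins in the cytoplasm, at -0.31, and Hipk2 was higher at 0.17. In fRIP 2 were lower, Prpf4b at -0.58 and Dyrk3 at -0.48, and 5 were higher, among them Hipk2 at 0.47 and Hipk4 at 0.97, the latter from a level of 4.81 CPM in the input. The median of 0.14 is the value of Srpk3, which had at most 7 UMIs in a library. With the length trend removed the median was -0.03, 1 gene was lower and 2 were higher, and the signs of Srpk2 and Dyrk1a turned. Without replicate 6 the median was -0.02, and without the plate as a block it was -0.0028.

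Of 15 genes of the methionine and SAM cycle and of the control of the Mat2a intron, 14 were tested. In UV-RIP 10 were lower and none higher, with a median of -0.21, where TMM factors gave 5 lower and 2 higher with a median of -0.03. In fRIP 7 were lower and none higher, with a median of -0.24, and 3 were lower and 2 higher with the GC trend removed. Cpsf6, a subunit of cleavage factor I in the processing of RNA ends, was lower at -0.68 in UV-RIP and -0.49 in fRIP. Mettl14, a partner of the RNA methyltransferase Mettl3, was lower at -0.32 in UV-RIP, a call that did not pass with the GC trend removed, and at -0.44 in fRIP. Mat2b, the regulatory subunit that pairs with the Mat2a protein, was lower at -0.45 and -0.40. Mettl16, the methyltransferase that marks the Mat2a RNA and controls its intron, was lower at -0.31 in UV-RIP and did not pass in fRIP, at 0.01. No gene on this list was as low in fRIP as Mat2a itself, at -0.87.

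Of 8 genes of the O-GlcNAc pathway, 6 were lower and 2 higher in the UV-RIP IP, with a median of -0.21, where TMM factors gave 1 lower and 2 higher. In fRIP 4 were lower and 1 higher, with a median of -0.18, and 1 was lower and 1 higher with the GC trend removed. Oga, the enzyme that removes O-GlcNAc, was lower at -0.24 in UV-RIP, a sign that turned to 0.04 with the GC trend removed, and at -0.24 in fRIP, beside -0.56 and -0.57 for Ogt. Gnpnat1, which acts in the synthesis of the sugar donor, was lower at -0.37 and -0.48, and Pgm3 of the same synthesis at -0.19, a sign that turned to 0.06 with the GC trend removed, and -0.40. Hcfc1, a cofactor that OGT cuts, was higher at 0.22 in UV-RIP and did not pass in fRIP, at -0.04. Sfswap, a splicing regulator linked to the Ogt intron, was higher at 0.21 and 0.74.

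Long noncoding RNAs that stay in the nucleus did not share a single direction. Of 6 on the list, 4 were lower and 2 higher in the UV-RIP IP, and 2 were lower and 3 higher in fRIP. Malat1, of nuclear speckles, was lower at -0.72 and -0.50, and Tug1 at -0.55 and -0.57, near the values of Clk1 and Ogt. Neat1 was higher at 0.27 and 0.89, and Kcnq1ot1 at 0.47 and 0.79. The 10 abundant cytoplasmic mRNAs had medians of -0.15 in UV-RIP, where 7 were lower with total UMIs but 2 lower and 3 higher with TMM factors, and -0.75 in fRIP, where all 10 were lower. With the length trend removed the fRIP median was -0.35 and 7 were lower. Tpt1 was at -0.83 and -1.28, and Pgk1 at -0.31 and -0.70. In fRIP, Mat2a at -0.87 lay within their range of -1.28 to -0.48, as did Ogt.

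**Figure D5:**
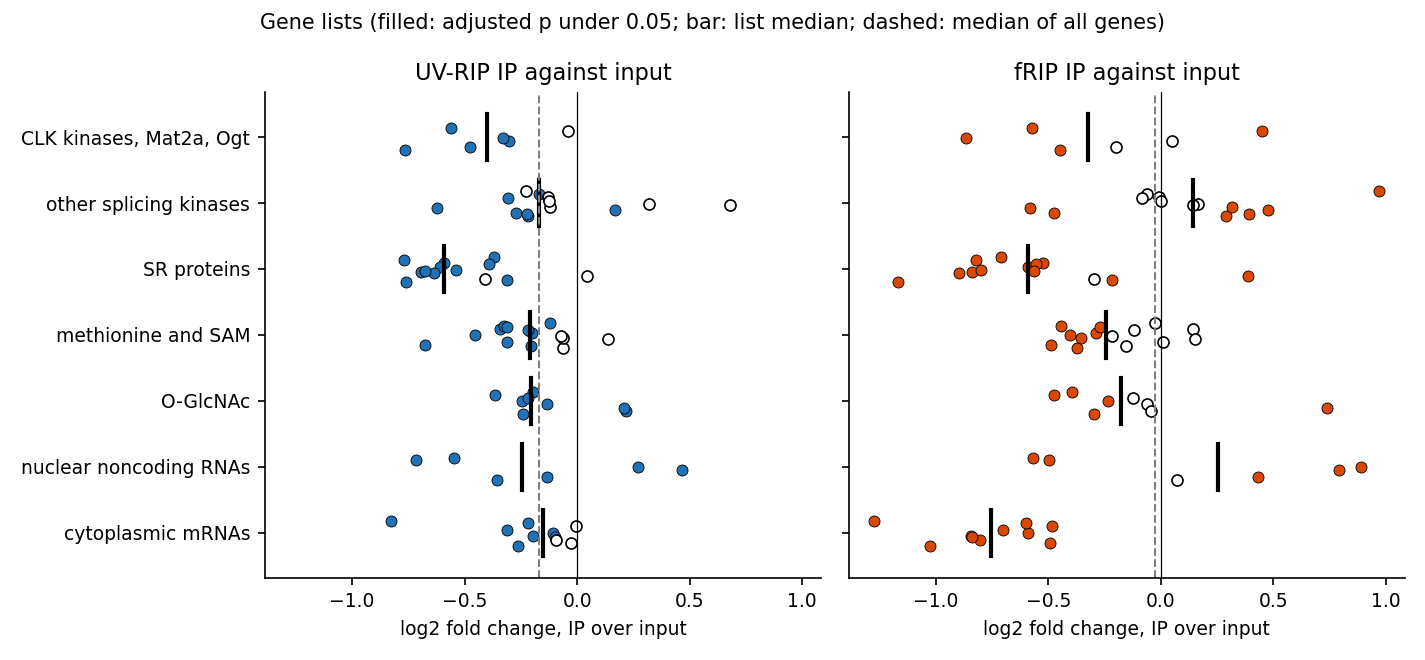
Log2 fold change of IP over input for the genes of each list, in UV-RIP and fRIP; filled points have an edgeR adjusted p under 0.05, bars are list medians and dashed lines the median of all genes tested. The SR protein genes have a median of -0.59 in both panels, and the cytoplasmic mRNAs have medians of -0.15 in UV-RIP and -0.75 in fRIP, the latter -0.35 with the length trend removed.

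The pattern of each gene over the 16 libraries was compared with that of 10207 other genes averaging at least 100 UMIs, by Pearson's r of log2 CPM with a pseudocount of 1. These values describe 16 libraries that share crosslinker, depth and base composition, and they carry no test. Among the genes most like Clk1 were Rsrc2 (r = 0.99) and Ggnbp2 (r = 0.98), and those most like Ogt were Pafah1b1, Nmd3 and the SR protein gene Srsf3 (r = 0.99 each). Clk1 and Ogt were near each other, with r = 0.95, and Ogt was the closest member to Clk1, at rank 69 of 10207. The genes most like Mat2a were Eif3m, Dnaja1 and Kbtbd8 (r = 0.98 each), with Ogt as the closest member (r = 0.87). For Clk4 they were 5730480H06Rik and Mir17hg (r = 0.98 each) and Cspp1 (r = 0.97), and its r with Clk1 was 0.59.

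Clk2 had no very close match, with Letm1 (r = 0.88), Slc35e3 (r = 0.86) and Tcp11 (r = 0.86) at the top. Clk3 was most like Cep89, Ppp1r16a and Mafg (r = 0.93 each). It ran against the other members, with r = -0.37 to Clk1, -0.58 to Clk4, -0.49 to Mat2a and -0.48 to Ogt, and r = 0.15 to Clk2. Within the kinase family, r thus ran from -0.58 to 0.59.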

How the data were processed

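Male mESC gave 4 Sox2 IP and 4 input libraries for each crosslinker, numbered 3 to 6. The authors aligned reads to mm10 with STAR, kept unique alignments, and used featureCounts on GENCODE vM16. The deposited counts are UMIs over each whole gene body, introns included, without normalization. The strand setting and tool versions are not given in the sources used here. All 16 count columns were matched to a library.

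Counts were analysed with edgeR 4.0.16 in R 4.3.3 by the quasi-likelihood test, with total UMIs as library size, and with DESeq2 1.42.0 as an alternative. A gene was tested if any library held at least 3 of its UMIs, and p was adjusted by Benjamini-Hochberg. The replicate number was the block in each comparison of IP with input, since both come from the same lysate by the study's methods. Across genes, same-numbered libraries deviated from their group means with correlations of 0.03 to 0.45 in UV-RIP and 0.11 to 0.61 in fRIP. No block was used between inputs. Replicates differed by more than sampling noise. The scripts were tested on simulated data.

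The members and gene lists were chosen with earlier results of these data known. The rule for named genes took from each other list, per comparison, the 2 genes furthest above and the 2 furthest below 0 among those past the adjusted p, beside Sox2, genes that overlap a member, and the 3 genes most like each member. Those of the marker lists other than Nanog and Pou5f1, and most of those for the contrasts between crosslinkers, are not named, to keep to the members. Gm26917, Sox2ot, Srpk3 and Dyrk1a were named after their values were seen. A gene and a sequence that these rules select are not reported here. Coordinates and sequences are from GENCODE vM21 on GRCm38, where all 6 identifiers matched with their version. GC content is over annotated transcripts, and GC and length trends were removed as smooth offsets. Alternatives changed the scaling, the filter, the block or the libraries fitted, or left each replicate out. In vitro binding data were not analysed here.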

Additional observations from a re-analysis of the deposited data

Results flagged for a closer look

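Of 36 groups of 4 values examined, 3 held a value far from the others by Dixon's criterion, which chance alone meets in about 1 of 20 groups. Clk1 had 71.05 CPM in the fRIP IP library of replicate 5, against 93.57 to 95.55 in the other fRIP IP libraries. Ogt had 179.6 CPM in the same library, against 235.3 to 243.1. In that library 12.4% of the UMIs fell on Gm26917, and its part in these values was not tested. Clk2 had a log2 ratio of IP to input of 0.4077 in the fRIP plate of replicate 4, against -0.12 to -0.0375 in the other plates. The input library of that plate stood apart from the other fRIP inputs.

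The ratio of IP to input differed between fRIP and UV-RIP by the edgeR interaction test for 5 genes, by 0.32 for Clk1, 0.35 for Clk2, 0.49 for Clk3, 0.28 for Clk4 and -0.54 for Mat2a on the log2 scale. Of 13 alternatives each, Clk3 and Mat2a passed in 13, Clk2 in 9, Clk1 in 7 and Clk4 in 4.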

How the results depend on the processing

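Of the values of the 6 genes under alternative settings, 73 in UV-RIP, 76 in fRIP, 57 for the difference between crosslinkers and 67 between the inputs had the same sign and the same call as in the report. The cause of the exceptions was not tested. The exceptions follow as log2 differences, with the counts of members past the threshold.

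In UV-RIP, Clk3 changed sign to 0.14 with TMM factors, with median-of-ratios factors in DESeq2 and with the length trend removed, to 0.02 with the GC trend removed, and to 0.11 with library sizes that leave out Gm26917 and Gm42418. TMM thus counted 1 member as higher. Median-of-ratios factors left Clk2 at -0.13, not past. Without the length trend, Clk2 at -0.11 and Mat2a at -0.10 did not pass, and without the GC trend Clk4 and Mat2a, each at -0.08, did not, so that 3 members remained lower in either case. In fRIP, removal of the length trend brought Clk2 past at 0.30, so that 2 members were higher. Removal of the GC trend put Clk1 at -0.01, not past, and turned Clk2 to -0.02 and Clk4 to 0.14. Clk4 passed at -0.20 with a filter of 10 UMIs in 4 libraries and also in a fit of all 16 libraries.

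For the difference between crosslinkers, the values that no longer passed were, for Clk1, Clk2 and Clk4, 0.20, 0.23 and 0.16 with TMM, 0.17, 0.20 and 0.13 with median-of-ratios factors, and 0.18, 0.22 and 0.14 with Gm26917 and Gm42418 left out, each time leaving 1 member higher. Clk4 at 0.24 did not pass without the length trend, nor did Clk2 at 0.23 and Clk4 at 0.22 without the GC trend, which left 2 members higher. Without the replicate block, Clk1 at 0.32 and Clk4 at 0.27 did not pass, which also left 2. The block changed no other call, and between the inputs a block on the number, which marks separate plates there, left Clk4 at -0.69 and Mat2a at 0.51, both past.

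Between the inputs, Clk2 passed at -0.24 with TMM and with median-of-ratios factors and at -0.38 without the GC trend, so that 2 members were lower. Without the length trend, Clk1 passed at -0.33 and Clk2 at -0.42, Mat2a at 0.17 did not, and 3 members were lower and 0 higher. With Gm26917 and Gm42418 left out, Clk1 passed at -0.26 and Clk2 at -0.32, Ogt turned to -0.02, and 3 members were lower. In the order of input levels, exon length put Ogt at rank 2 and Clk1 at rank 3 in both inputs, and in fRIP Clk4 at rank 5 and Clk3 at rank 6.

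With each replicate left out in turn, Clk3 in UV-RIP ran from -0.08 to 0.03, Clk2 in fRIP from -0.07 (without replicate 4) to 0.11, and Clk4 in fRIP from -0.21 to -0.19. The difference between crosslinkers ran from 0.27 to 0.40 for Clk1, which did not pass without replicate 3 or 6, from 0.24 to 0.30 for Clk4, which did not pass without replicate 3, 5 or 6, and from -0.06 to 0.04 for Ogt, so that 2 to 4 members were higher. Between the inputs, Clk1 ran from -0.24 (past without replicate 4) to -0.12 and Ogt from -0.02 to 0.17, and 1 to 2 members were lower. With the fold of 1.5 added, 2 members rather than 1 were depleted in UV-RIP without replicate 4 and in fRIP without replicate 3 or 6. That count was 0 in UV-RIP with TMM or either trend removed, and in fRIP 0 without the length trend, where 1 was enriched. Each member had at least 376 UMIs in every library, and 4 plates a group allow no exact permutation p under 0.0286.

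Over all genes, the split of higher and lower calls moved by more than 10 percentage points under other scalings. In UV-RIP 3866 genes were lower and 3327 higher with Gm26917 and Gm42418 left out, 2210 and 2337 with median-of-ratios factors, 3485 and 3603 without the length trend, and 2765 and 2883 without the GC trend. In fRIP 3501 were lower and 4744 higher without the length trend. Between crosslinkers 2364 had a lower and 2114 a higher ratio with median-of-ratios factors, 1602 and 2052 without the length trend, 2651 and 3040 without the GC trend, and 2955 and 2863 with both loci left out. Between the inputs 4819 were lower and 3092 higher without the length trend, and 5017 and 3602 with both loci left out.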
